A study of Mus musculus with 6 samples.

Results

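The 10 genes described here encode chemokines that stromal and endothelial cells can make: Ccl2, Ccl7, Ccl8, Ccl11, Cxcl1, Cxcl10, Cxcl12, Cxcl14, Cxcl16 and Cx3cl1. They were taken by name from the deposited count tables, which hold 23998 gene symbols, and all 10 were found. The tables come from single cells sorted out of digested mouse kidney, with 1 cell per well read along its whole transcripts (Smart-seq2). Each of 6 plates mixed cells of 3 mice, which were 1 healthy mouse, 1 at day 2 and 1 at day 10 of unilateral ureteric obstruction (UUO), a ligation of 1 ureter that injures tubules and leads to fibrosis. The well layouts name a sort gate, mesenchyme or endothelia, and a number from 1 to 4, read here as the mouse within a condition. Counts were summed over the wells of a gate, condition and number, which gave 4 sums per group. Strain, age, genotype and the sorting markers are not given in the sources used here. The files also count an eGFP transcript, which averaged 476 to 555 CPM in the mesenchyme gate and 5.24 to 11.9 CPM in the endothelia gate. CPM is a gene's reads scaled to all gene reads of the sum, without correction for gene length.

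Chemokines are small secreted proteins that steer leukocytes along a gradient by binding G protein-coupled receptors, and their names follow the spacing of their first cysteines (CC, CXC or CX3C). In kidney, the vessel wall and the interstitial stroma are known sources: CCL2, CCL7 and CCL8 recruit monocytes, CCL11 eosinophils, CXCL1 neutrophils and CXCL10 activated T cells. CX3CL1 and CXCL16 are made as membrane proteins with a mucin stalk that tether cells bearing CX3CR1 or CXCR6 and can be shed by proteases. CXCL12 acts through CXCR4 in vessel formation and cell retention, and CXCL14 is a conserved CXC member with debated receptors.

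Of 2292 sorted wells, 2235 passed the limits of 1000 genes and 20000 reads, and the sums held 19382742 to 56326210 reads. The gates held their defining markers: the endothelial adhesion gene Pecam1 averaged 2186 to 2548 CPM in the endothelia gate and 1.00 to 3.89 CPM in the mesenchyme gate. The mural and fibroblast receptor gene Pdgfrb averaged 927 to 1055 and 3.35 to 19.1 CPM in the mesenchyme and endothelia gates. The pan-leukocyte gene Ptprc averaged 0.0754 to 1.24 CPM in the mesenchyme gate and 0.860 to 1.21 CPM in the endothelia gate, and 5 to 8 wells per group held at least 3 leukocyte or macrophage markers at 10 CPM. RNA of the proximal tubule was at different levels in the 3 conditions. Its transcript Kap averaged 149.8, 26.9 and 1.67 CPM in the mesenchyme gate, from the healthy sums through day 2 to day 10, and 540.1, 53.4 and 2.52 CPM in the endothelia gate, and its part in the chemokine values was not tested. Summed distal tubule and loop markers ran from 41.1 to 1030, 4.19 to 365 and 354 to 2104 CPM in the mesenchyme gate. They ran from 72.2 to 1333, 12.1 to 211 and 0.728 to 78.0 CPM in the endothelia gate. Summed podocyte markers ran from 776 to 3100, 1359 to 7602 and 806 to 4048 CPM in the mesenchyme gate. Their part was not tested either. Condition and plate column cannot be told apart, because a condition filled the same columns in every plate. In sums of cells, fewer cells of a type and less RNA per cell cannot be told apart either. No label says more of how mice were handled, so p-values measure the spread between these sums.

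The genes lie at few places in the genome (RefSeq, GRCm38.p6, the mm10 build). Ccl2 (chr11:82035577-82037452), Ccl7 (chr11:82045712-82047525), Ccl11 (chr11:82057832-82062955) and Ccl8 (chr11:82115185-82116799) sit in 1 cluster, and Cxcl16 is elsewhere on that chromosome (chr11:70454389-70459984). Cxcl1 (chr5:90891245-90893121) and Cxcl10 (chr5:92346638-92348889) share chromosome 5. Cxcl12 (chr6:117168535-117181368), Cxcl14 (chr13:56288643-56296811) and Cx3cl1 (chr8:94772180-94782427) share no chromosome with another member. The positions of other chemokine genes were not looked up.

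The 250 bases before the start site are shown for Cxcl10 and Cxcl1, the members with NF-kB-like letters there, and for Cx3cl1, the member whose change after obstruction passed the test. They are printed 5′ to 3′ on the gene's strand from RefSeq (GRCm38.p6): Cxcl10 from chr5:92348890-92349139, minus strand, Cxcl1 from chr5:90890995-90891244, plus strand, and Cx3cl1 from chr8:94771930-94772179, plus strand. Capitals mark matches, on either strand, to an NF-kB-like motif (GGGA, any 2 bases, T, any base, CC) or an interferon response element-like motif (GAAA, any 2 bases, GAAA).
Cxcl10: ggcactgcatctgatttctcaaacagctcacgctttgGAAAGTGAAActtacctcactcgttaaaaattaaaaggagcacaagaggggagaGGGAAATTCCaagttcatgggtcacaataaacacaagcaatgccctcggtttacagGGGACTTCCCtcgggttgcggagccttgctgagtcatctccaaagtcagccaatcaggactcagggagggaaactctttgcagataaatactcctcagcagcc
Cxcl1: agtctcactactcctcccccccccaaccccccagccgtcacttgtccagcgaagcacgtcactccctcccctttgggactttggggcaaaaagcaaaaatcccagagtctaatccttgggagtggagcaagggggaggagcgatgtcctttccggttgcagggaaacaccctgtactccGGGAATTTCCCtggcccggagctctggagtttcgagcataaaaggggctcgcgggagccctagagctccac
Cx3cl1: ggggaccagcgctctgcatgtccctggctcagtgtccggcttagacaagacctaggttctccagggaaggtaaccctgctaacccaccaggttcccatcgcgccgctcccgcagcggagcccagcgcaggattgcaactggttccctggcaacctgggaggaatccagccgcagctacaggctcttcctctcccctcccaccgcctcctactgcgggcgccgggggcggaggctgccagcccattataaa
The Cxcl10 window holds 1 interferon-type match, GAAAGTGAAA, its first base at -213 from the start site, and then 2 NF-kB-like matches, GGGAAATTCC at -159 and GGGACTTCCC at -103. The capitals of Cxcl1 are 2 NF-kB-like matches that overlap on opposite strands, from -71 and -70. The Cx3cl1 window holds neither motif. Over all 32851 RefSeq windows (250 bases before and 50 after the start), 4.01% hold the NF-kB-like motif and 3.44% the interferon-type motif. Windows were found for 6 of the 10 members. Those of Cxcl12 and Ccl8 hold neither motif, and that of Cxcl14, taken from a start site inside the gene's listed span, holds 1 interferon-type match. A match describes letters and not binding.

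Cx3cl1 was the member whose level changed after obstruction in both gates. In the endothelia gate it stood at 584, 536, 549.5 and 216 CPM in the healthy sums of numbers 1 to 4, at 750.01, 964, 573 and 509.8 CPM at day 2, and at 1193, 1308, 1092 and 934 CPM at day 10. All 4 day 10 sums lay above all 4 healthy sums, as they did for 3.39% of genes, and the day 2 sums overlapped the healthy ones. The means were 471 ± 172, 699 ± 204 and 1132 ± 159 CPM (SD, n = 4). The change at day 10 was 1.35 ± 0.21 on the log2 scale (SE), and it passed (edgeR quasi-likelihood test with number as a block, Benjamini-Hochberg adjusted p = 0.0236). Of the 14026 genes tested in that comparison 0.649% passed, and Cx3cl1 was the 1 of 6 members tested that did. At day 2 its change was 0.62 ± 0.21 (adjusted p = 0.414). Without the block on number its adjusted p at day 10 was 0.122, and without numbers 1, 2, 3 and 4 in turn it was 0.104, 0.0562, 0.0847 and 0.188, while the change stayed between 1.10 and 1.49.

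Most of these reads lay in glomerular endothelial-like wells. They are 2 clusters with the glomerular endothelial markers Ehd3, Tbx3 and Gata5, of 171, 168 and 189 wells in healthy, day 2 and day 10 kidneys, and they held 71.4%, 76.6% and 69.6% of the gate's Cx3cl1 reads. Within them Cx3cl1 stood at 617, 827, 1147 and 389.9 CPM in healthy sums, 1033, 1054, 1259 and 908 CPM at day 2 and 1509, 1507, 1735 and 1377 CPM at day 10. Every number was higher at day 10 than when healthy, and these groups of sums did not overlap, as for 4.44% of genes tested in these wells. The change was 1.09 ± 0.19 (edgeR adjusted p = 0.0305), where 0.892% of the 11880 genes tested passed, and Cx3cl1 was the 1 of 5 members tested that did. At day 2 it was 0.61 ± 0.19 (adjusted p = 0.397), where 0.177% of genes passed. The day 10 call was lost without the block (0.122) and without number 1, 2 or 4 (0.195, 0.116 and 0.195). Cluster 3, led by P2ry1 and Ehd3, held 162 of the healthy wells, and cluster 1, led by Apln and Gpihbp1, held 165 of the day 10 wells. Cluster 2, an unnamed endothelial cluster led by Esm1 (22, 22 and 80 wells), held 757, 1801 and 1371 CPM. The arterial endothelial-like wells held 201, 150.1 and 267 CPM and the peritubular capillary-like wells 157, 100.3 and 89.7 CPM.

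Cx3cl1 was lower in the mesenchyme gate, at 36.3, 8.43, 57.2 and 110.04 CPM in healthy sums, 110.4, 18.4, 105 and 76.8 CPM at day 2 and 175, 58.7, 195 and 205 CPM at day 10. Day 10 was above healthy in each of 4 numbers, although the lowest day 10 sum, of number 2, lay below the highest healthy sum. The change was 1.84 ± 0.33 at day 10 and passed (edgeR adjusted p = 0.0241), where 1.32% of 14582 genes passed and Cx3cl1 was the 1 of 8 members tested that did. At day 2 it was 0.75 ± 0.33 (adjusted p = 0.483). Fibroblast-like wells, a cluster led by Dcn, Col3a1 and Cxcl14, numbered 11, 15 and 66 in healthy, day 2 and day 10 kidneys and held 44.6%, 61.7% and 74.9% of the gate's Cx3cl1 reads. Their pooled Cx3cl1 level was 854, 1418 and 784 CPM. Without the fibroblast-like wells the change of Cx3cl1 at day 10 was 0.55 ± 0.50 (adjusted p = 0.769). The call was also lost without the block (1.55 ± 0.65, adjusted p = 0.361), without number 1, 2 or 3 (0.131, 0.0818 and 0.155) and without plate 1, 2 or 5 (0.0555, 0.0524 and 0.150). Wells of the unnamed cluster 6 (163, 179 and 145 CPM) and mesangial-like wells (176, 222 and 151 CPM) also held the transcript, while vascular smooth muscle-like wells held 13.9, 14.3 and 19.7 CPM.

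Between the gates Cx3cl1 differed in each condition. The tests between gates block on number, which spans the mice of 3 conditions, and do not pair the gates of a single mouse. It was lower in the mesenchyme gate by a log2 change of -3.41 ± 0.65 in healthy kidneys, -3.50 ± 0.64 at day 2 and -3.14 ± 0.63 at day 10 (edgeR adjusted p = 0.000550, 0.000409 and 0.000975). The sums of the gates did not overlap, as for 11.5%, 11.2% and 10.7% of genes in that direction. Of 380 healthy, 368 day 2 and 381 day 10 wells of the endothelia gate, 258, 274 and 332 held a read of Cx3cl1, and of 364, 366 and 376 wells of the mesenchyme gate, 84, 83 and 151 did. After each well was thinned to 100000 reads, with 67 shallower wells left out, the shares were 61.9% ± 12.5, 70.1% ± 12.6 and 84.2% ± 3.18 in the endothelia gate and 16.5% ± 5.58, 16.8% ± 1.76 and 31.3% ± 10.2 in the mesenchyme gate (SD, n = 4). Of 12 control wells, 2 held Cx3cl1, with 31 of the 32 reads in a control well of 30393 reads.

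**Figure D1:**
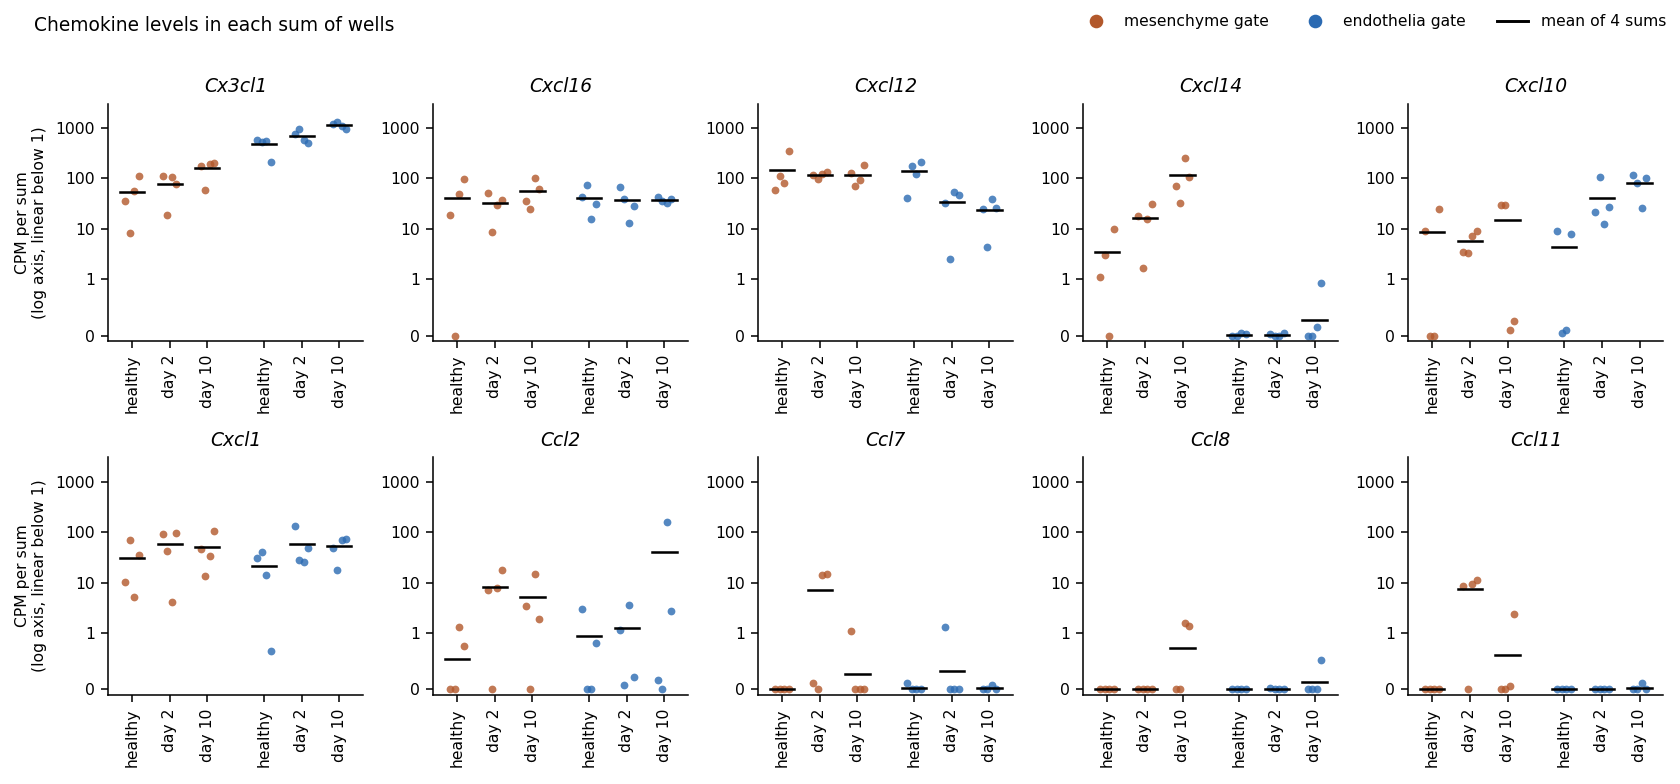
CPM of each of the 10 chemokines (log axis, linear below 1) in every sum of wells, by gate and condition; each point is 1 layout number and each bar the mean of 4. Cx3cl1 at day 10 in the endothelia gate lies between 934 and 1308 CPM, above all 4 healthy sums, and the 4 CC members hold many sums at 0.

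Cxcl16, the other membrane-bound member, did not pass in any comparison by day or between gates. In the endothelia gate it stood at 41.9, 72.5, 15.6 and 30.9 CPM in healthy sums, 66.6, 39.1, 12.8 and 28.5 CPM at day 2 and 42.5, 35.6, 32.7 and 39.9 CPM at day 10. The groups overlapped, with a log2 change of 0.16 ± 0.39 at day 10 (edgeR adjusted p = 0.941). Its mesenchyme sums stood at 18.7, 0, 49.6 and 96.3 CPM when healthy and 35.6, 24.6, 102 and 62.0 CPM at day 10 (1.22 ± 1.04, adjusted p = 0.687), and they overlapped too. Its fibroblast-like wells held 837, 428 and 230.5 CPM in the 3 conditions in order of time, with 10 of 11, 12 of 15 and 45 of 66 wells positive. Cluster 6 held 184, 147 and 83.4 CPM, and the glomerular-like wells of the endothelia gate held 58.3, 64.5 and 49.8 CPM. The fibroblast-like values could not be tested, since too few sums held 10 such wells. Of the mesenchyme gate's day 10 reads of Cxcl16, 17.2% came from the 37 wells whose cluster did not match the gate.

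Cxcl12 was higher in the mesenchyme gate than in the endothelia gate after obstruction. In the mesenchyme gate it stood at 59.0, 109.8, 82.4 and 348 CPM in healthy sums, 116, 98.3, 124 and 131 CPM at day 2 and 129.96, 69.9, 92.1 and 184 CPM at day 10. These groups overlapped, and the change at day 10 was -0.18 ± 0.35 (edgeR adjusted p = 0.887). Its endothelia sums stood at 41.6, 175, 124 and 211 CPM when healthy, 31.9, 2.56, 54.2 and 46.6 CPM at day 2 and 25.1, 4.29, 39.2 and 25.5 CPM at day 10. The 4 day 10 sums lay below the 4 healthy sums, as they did for 3.39% of genes, but the change of -2.98 ± 0.80 did not pass (edgeR adjusted p = 0.158), nor did -2.56 ± 0.80 at day 2 (adjusted p = 0.356). At day 10 it passed without a filter on low counts, in sums per plate and in DESeq2 (adjusted p = 0.0467, 0.0383 and 0.000139). Plates 1 and 2 both hold number 1, and plates 5 and 6 number 4. Sums per plate thus enter these numbers, read here as mice, more than once.

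The difference of Cxcl12 between gates was 1.94 ± 0.64 at day 2 and 2.25 ± 0.64 at day 10, higher in the mesenchyme gate in 4 of 4 numbers (edgeR adjusted p = 0.0343 and 0.0154). The sums did not overlap, as for 14.1% and 16.2% of genes in that direction. The day 2 call was lost without the block (0.0796), without number 1, 2, 3 or 4 (0.0717, 0.0530, 0.0546 and 0.112) and without plate 2 or 5 (0.132 and 0.0629). The day 10 call was lost without number 4 (0.0953) or plate 2 (0.0542). In healthy kidneys the difference was -0.17 ± 0.61 (adjusted p = 0.880). The test of whether the change itself differed between gates did not pass for Cxcl12 (2.12 ± 0.89 at day 2 and 2.42 ± 0.88 at day 10, adjusted p = 0.552 and 0.279).

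The endothelial Cxcl12 reads came from few cell groups. Arterial endothelial-like wells (79, 62 and 69) held 47.0%, 72.6% and 70.0% of them, and the unnamed cluster 0, led by Aqp1 and Csf2rb2, held 49.5%, 16.8% and 15.3% in 25, 15 and 7 wells. Glomerular-like wells, which carried most Cx3cl1, held 7.27, 1.57 and 4.13 CPM of Cxcl12. In arterial-like sums of at least 10 wells Cxcl12 stood at 305, 340.2, 279 and 325 CPM when healthy, at 128, 262 and 134 CPM at day 2 (numbers 1, 3 and 4) and at 111, 54.7 and 105 CPM at day 10 (the same numbers). Day 2 lay below healthy, as for 3.03% of genes tested in these wells, day 10 below healthy, as for 3.03%, and day 10 below day 2, as for 4.44%. Number 2 had a healthy sum only, so with number as a block it added nothing to this change. The change at day 10 was -1.73 ± 0.46 (edgeR adjusted p = 0.745). In these wells edgeR passed 0% of 11138 genes at day 2 and 0.0449% at day 10. At day 2, 528 genes had an unadjusted p below 0.05, no more than that limit gives where nothing changes. None of the 3 members tested passed.

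Pooled Cxcl12 levels were unequal among the mesenchymal cell groups, with no test between groups. Fibroblast-like wells held 2485, 556 and 194 CPM in the 3 conditions in order of time, with 10 of 11, 11 of 15 and 27 of 66 wells positive. The healthy value rests on 1 number with at least 5 such wells. Cluster 6 held 452, 259.9 and 415 CPM, and cluster 8, led by the renin gene Ren1, held 327, 231 and 188 CPM. In vascular smooth muscle-like sums Cxcl12 stood at 42.1, 64.9, 30.4 and 56.2 CPM when healthy, 68.1, 82.7, 76.5 and 96.4 CPM at day 2 and 181, 88.3, 30.7 and 149 CPM at day 10. The day 2 sums lay above the healthy ones, as for 3.59% of genes tested in these wells, and those of day 10 overlapped them. The changes were 0.81 ± 0.39 and 1.08 ± 0.39 (edgeR adjusted p = 0.563 and 0.347), in wells where 1.07% and 0.874% of 11894 genes passed and 0 of the 4 members tested did. Cluster 7 held 180 of these wells in healthy kidneys and cluster 9 held 169 and 120 at day 2 and day 10.

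**Figure D2:**
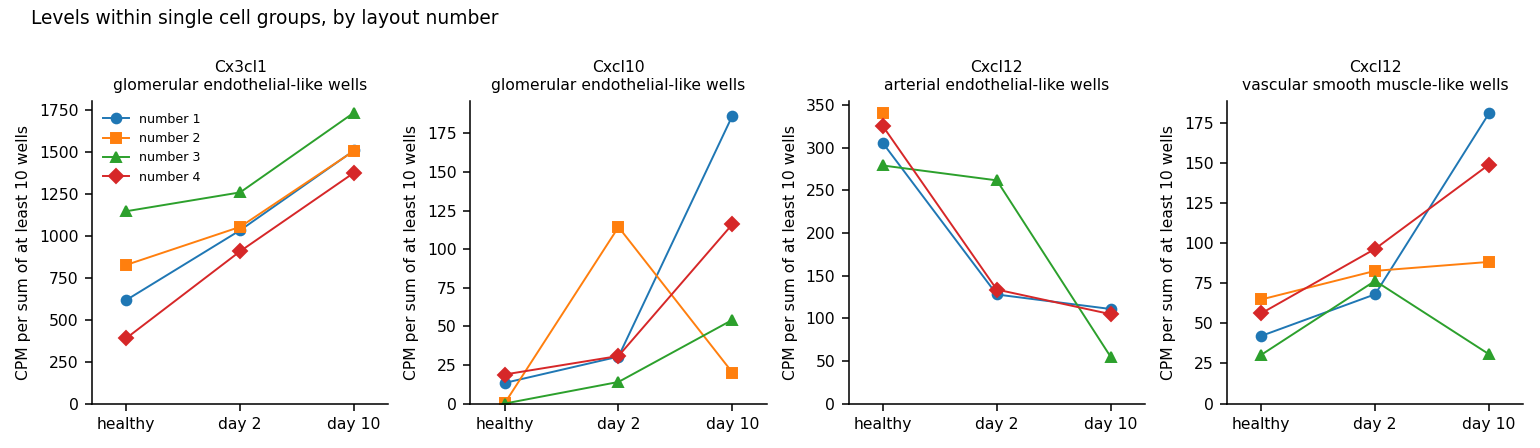
CPM of Cx3cl1 and Cxcl10 in glomerular endothelial-like wells and of Cxcl12 in arterial endothelial-like and vascular smooth muscle-like wells, in sums of at least 10 wells; each line is 1 layout number. Cx3cl1 at day 10 lies between 1377 and 1735 CPM, above its healthy sums in all 4 numbers, while the lines of Cxcl10 cross.

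Cxcl14 reads lay almost wholly in the mesenchyme gate, with 526, 2578 and 12388 reads in healthy, day 2 and day 10 kidneys against 2, 3 and 52 in the endothelia gate. Of the day 10 reads of the endothelia gate, 92.3% came from wells whose cluster did not match the gate. Pooled over sums, the ratio of the gates was 269.9 in healthy kidneys (95% exact counting interval 74.4 to 2235) and 858 at day 2 (293 to 4163). These intervals cover the counting of reads alone and set no limit for cells or mice. The 526 healthy reads lay in 10 of 364 wells, and number 3 held 0. Cxcl14 entered the test between gates through its mesenchyme sums, where it is high, so no call between gates is drawn from it. Its mesenchyme sums stood at 1.10, 3.09, 0 and 9.74 CPM when healthy, 18.0, 1.66, 16.1 and 31.0 CPM at day 2 and 72.1, 32.1, 256 and 105 CPM at day 10. The day 10 sums lay above all healthy and all day 2 sums, as they did for 4.44% and 3.00% of genes. The change at day 10 was 5.01 ± 1.22 and did not pass (edgeR adjusted p = 0.0802). It passed without a filter on low counts (0.0256), in sums per plate (0.0327), in limma on mean CPM (0.00308), in DESeq2 (0.00284) and without plate 6 (0.0489). Sums per plate enter numbers 1 and 4 more than once. The healthy sums alone would not have met the filter, so no call by day is drawn from Cxcl14 either.

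Fibroblast-like wells held 72.4%, 54.9% and 99.7% of the mesenchyme gate's Cxcl14 reads, in 5 of 11, 12 of 15 and 55 of 66 wells. Cxcl14 is among the leading genes of that cluster, so its level there describes the cluster. Summed CPM of the 5 fibroblast markers (Pdgfra, Col1a1, Col1a2, Dcn and Lum) ran from 205 to 1617 in healthy sums, 219.5 to 1474 at day 2 and 499 to 3460.2 at day 10.

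Cxcl10, an interferon-inducible ligand of CXCR3, was found in more wells of the endothelia gate after obstruction. There it stood at 9.11, 0.0428, 0.0910 and 7.96 CPM in healthy sums, 21.3, 106, 12.3 and 27.4 CPM at day 2 and 119, 82.9, 25.7 and 103 CPM at day 10. Both groups of obstructed sums lay above all healthy sums, as 2.27% of genes did at day 2 and 3.39% at day 10. The changes of 3.83 ± 1.23 and 4.72 ± 1.17 did not pass in edgeR (adjusted p = 0.379 and 0.128). At day 10 it passed without a filter on low counts (0.0275), in sums per plate (0.0435), in limma on mean CPM (0.00861) and in DESeq2 (0.00307). Sums per plate enter numbers 1 and 4 more than once. With healthy sums at 0.0428 and 0.0910 CPM, Cxcl10 met the filter through its obstructed sums, where it is high. No call by day is therefore drawn from it. Wells with a read numbered 9, 29 and 66 of 380, 368 and 381, and after thinning 1.24% ± 1.09, 6.48% ± 1.49 and 13.2% ± 5.27 of wells held one (SD, n = 4). The highest well of number 2 at day 2 held 58.2% of that sum's reads, and without it the sum stood at 45.2 CPM.

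Glomerular-like wells held 94.1%, 72.4% and 64.4% of the endothelial Cxcl10 reads, at pooled levels of 10.7, 54.1 and 116 CPM. Their sums stood at 13.3, 0.0853, 0 and 18.8 CPM when healthy, 30.4, 114, 14.0 and 30.8 CPM at day 2 and 186, 20.1, 54.2 and 116 CPM at day 10. The day 2 and healthy sums overlapped, and the day 10 sums lay above the healthy ones, as for 4.44% of genes, but the change of 4.27 ± 1.44 did not pass (edgeR adjusted p = 0.300). Cluster 2 held 23.1% of the reads at day 10. The mesenchyme sums of Cxcl10 stood at 9.27, 0, 0 and 25.3 CPM when healthy and 29.4, 29.1, 0.103 and 0.265 CPM at day 10, and these groups overlapped. Cluster 6 contributed 86.7% of them when healthy and 68.1% at day 2. Between gates Cxcl10 did not pass in edgeR at day 10 (adjusted p = 0.226) and passed in limma on mean CPM (0.00721).

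Cxcl1 did not pass in any comparison by day or between gates. It stood at 30.9, 40.3, 14.1 and 0.671 CPM in healthy sums of the endothelia gate, 131, 27.9, 25.2 and 47.9 CPM at day 2 and 48.1, 17.6, 70.6 and 71.6 CPM at day 10, with log2 changes of 1.39 ± 0.96 and 1.58 ± 1.02 (edgeR adjusted p = 0.795 and 0.655). Its mesenchyme sums stood at 10.1, 70.7, 5.24 and 35.2 CPM when healthy and 46.1, 13.7, 34.1 and 107 CPM at day 10 (1.13 ± 0.90, adjusted p = 0.659). All these groups overlapped. Wells named mesangial-like, after the contractile cells of the glomerular tuft, held 209.6, 266 and 418 CPM and took 67.5% of the gate's reads at day 10. In glomerular endothelial-like wells the pooled level was 18.3, 70.3 and 70.6 CPM, and the changes of 3.85 ± 1.20 and 3.83 ± 1.21 did not pass (edgeR adjusted p = 0.397 and 0.258). Cxcl1 is also known as a gene that tissue digestion can induce. The summed level of 8 dissociation stress genes ran from 11579 to 17701 CPM in healthy sums of the endothelia gate, 12814 to 18724 CPM at day 2 and 6276 to 15534 CPM at day 10, and its part in the Cxcl1 values was not tested.

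**Figure D3:**
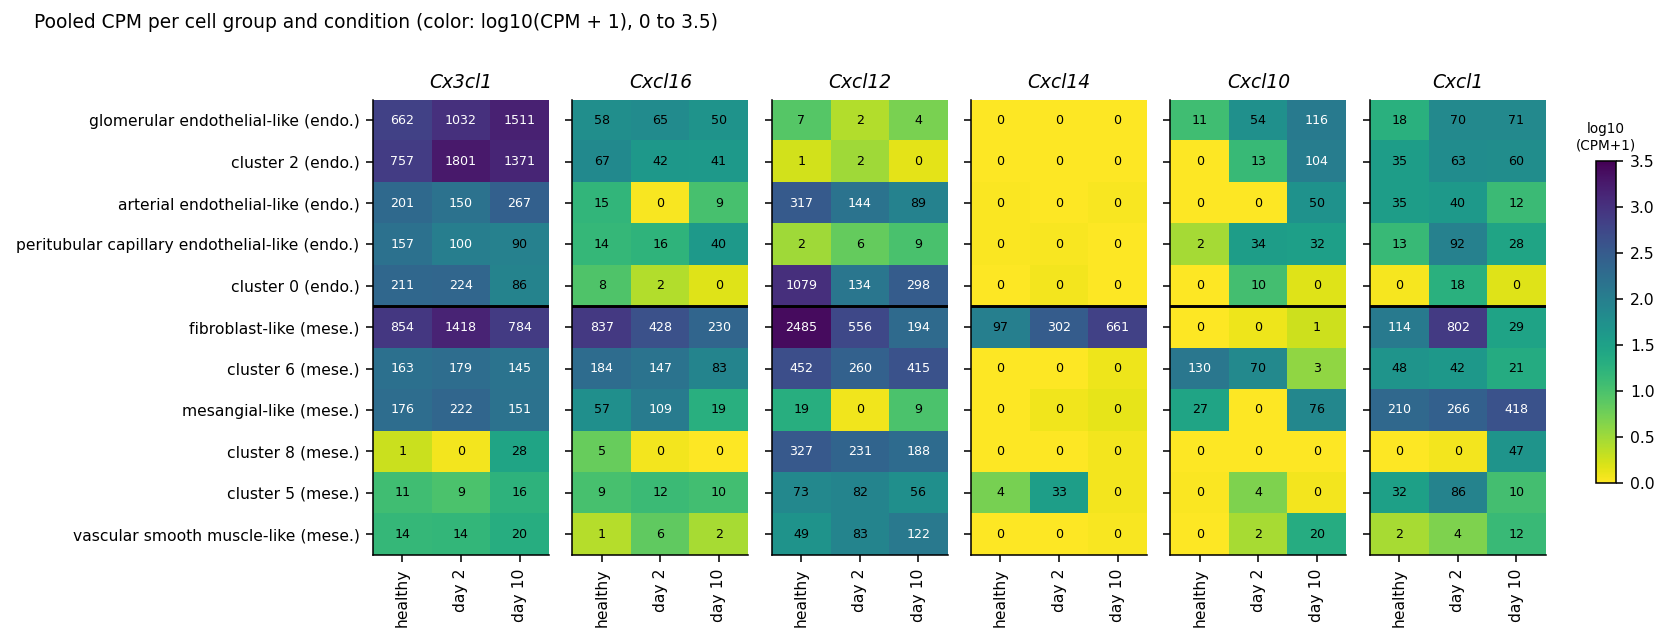
Pooled CPM of 6 chemokines in each cell group (endo. and mese. name the gate) and condition, with the value printed and colored by log10 of CPM + 1. Cx3cl1 is high in glomerular-like, cluster 2 and fibroblast-like wells, Cxcl12 in healthy fibroblast-like (2485) and cluster 0 (1079) wells, and Cxcl14 in fibroblast-like wells.

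The CC members were rare. Over all kept wells Ccl2 was found in 36 wells with 6709 reads, Ccl7 in 14 with 1148, Ccl11 in 12 with 1195 and Ccl8 in 4 with 111. At least 1 of them was present in 2, 17 and 17 of 364 healthy, 366 day 2 and 376 day 10 wells of the mesenchyme gate, and in 6, 9 and 8 of 380, 368 and 381 wells of the endothelia gate.

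Ccl2, the ligand of CCR2 on monocytes, stood at 0, 0, 1.35 and 0.774 CPM in healthy sums of the mesenchyme gate, 7.07, 0, 7.66 and 17.8 CPM at day 2 and 3.38, 0, 15.01 and 1.88 CPM at day 10. The groups overlapped, since number 2 held no read in any condition. The log2 change at day 2 was 4.64 ± 1.69 (edgeR adjusted p = 0.410, and 0.0417 in DESeq2). Ccl2 met the filter on low counts with the help of its obstructed sums, so no call is drawn from it. Its endothelia sums stood at 0.160, 0, 161 and 2.71 CPM at day 10. A single peritubular capillary-like well of number 3 held 4405 reads, 65.7% of all Ccl2 reads of the series, and without it that sum stood at 0.0741 CPM. Of the 20 mesenchyme wells with Ccl2, 15 also held Cxcl16, where independent placement in wells would give 2.91.

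Ccl11, known as eotaxin, was found at day 2 in the mesenchyme gate, at 8.71, 0, 9.51 and 11.4 CPM, in 7 of 366 wells. All 364 healthy wells of that gate held 0 reads, which allows up to 0.824% of wells if wells are taken as independent. Wells of 1 mouse are not independent, so this sets no limit for mice. The pooled day 2 level was 344-fold higher than 3 reads over the healthy group would give. That fold compares reads and sets no limit for cells or mice, since the day 2 reads lay in 7 wells and number 2 held 0. At day 10 its sums held 0, 0, 0.0516 and 2.41 CPM. Its difference from healthy at day 2 did not pass (edgeR adjusted p = 0.225). All 368 wells of the endothelia gate at day 2 also held 0 reads. The pooled mesenchyme level was 366-fold higher than 3 reads over that group would give, again comparing reads alone. Ccl11 entered the tests through the day 2 mesenchyme sums, where it is high, so no call between gates is drawn from it. The highest well, of cluster 6, held 44.9% of all Ccl11 reads, and the next, fibroblast-like, held 22.0%.

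Ccl7 stood at 0.108, 0, 14.2 and 14.6 CPM in the mesenchyme gate at day 2 and was at 0 in all healthy sums there. The highest well held 54.3% of its reads in the series and the next 30.1%, from cluster 6 and the fibroblast-like cluster. Ccl8 reached 1.55 and 1.41 CPM in day 10 sums of numbers 3 and 4, from 1 fibroblast-like well each. In the endothelia gate, 88.7% of the day 2 reads of Ccl7 and all reads of Ccl8 (1 at day 2 and 27 at day 10) came from wells with at least 3 leukocyte or macrophage markers. Neither Ccl7 nor Ccl8 entered the tests by day, and Ccl11 and Cxcl14 entered them in the mesenchyme gate only.

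**Figure D4:**
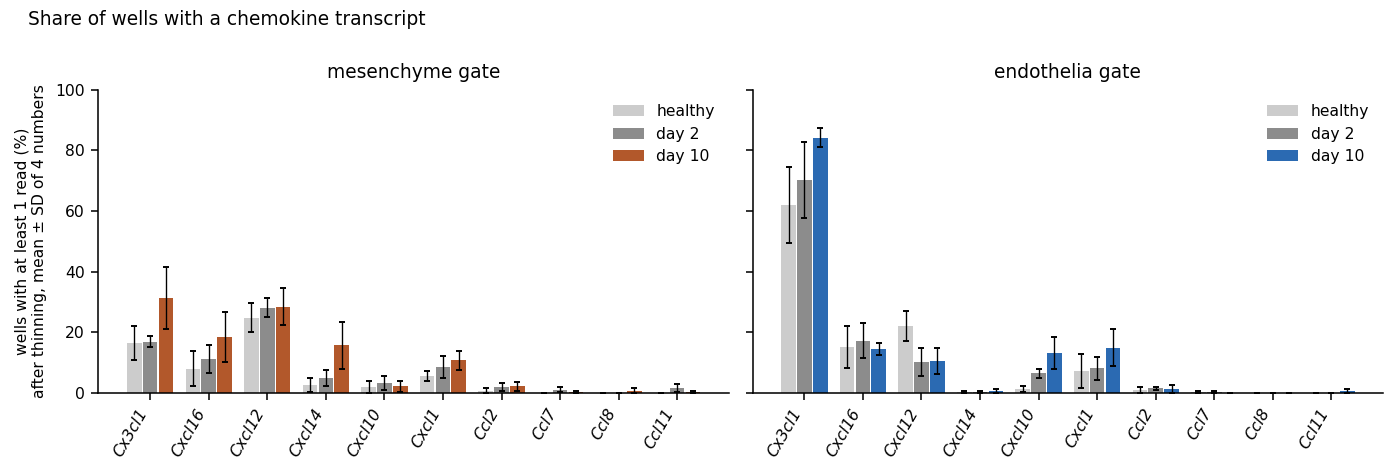
Share of wells with at least 1 read of each chemokine after thinning to 100000 reads per well; bars are means and lines SDs of 4 numbers, by gate and condition. Cx3cl1 goes from 61.9% to 84.2% of wells in the endothelia gate, and the means of the CC members stay below 3%.

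Counted over all members, 0 of 8 tested passed in the mesenchyme gate at day 2 (edgeR, with 3 at an unadjusted p under 0.05), where 0.459% of all genes passed. For the endothelia gate at day 2 the count was 0 of 6 (3 at an unadjusted p under 0.05), against 0.150% of all genes. Over all genes, 1473 of 14582 in the mesenchyme gate and 1195 of 14026 in the endothelia gate had an unadjusted p under 0.05 at day 2. DESeq2 called 1 member (Ccl2) and 2 members (Cxcl10 and Cxcl12) there, among 571 and 452 genes called. Ccl2 and Cxcl10 met the filter with the help of obstructed sums, so nothing is drawn from their calls. Between day 10 and day 2, 0 of 8 and 0 of 6 passed in edgeR (3 and 1 at an unadjusted p under 0.05), against 0.0480% and 0.0143% of all genes. An unadjusted p under 0.05 was met there by 1227 of 14582 and 882 of 14026 genes. DESeq2 called Cx3cl1 in each gate, among 377 and 289 genes called. The comparisons with healthy share the healthy sums. The median log2 change of the tested members was 0.99 at day 2 and 1.72 at day 10 in the mesenchyme gate (0.01 and 0.04 over all genes), and 0.24 and 1.46 in the endothelia gate (-0.02 and -0.02 over all genes). The mesenchyme medians include Ccl11, which could enter only through obstructed sums, and Cxcl14, at its highest there, while Ccl7 and Ccl8 did not enter. The medians of both gates include Ccl2 and Cxcl10, which entered with the help of obstructed sums. The filter thus bears on these medians, and nothing is drawn from them.

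Between gates, Cx3cl1 passed in all 3 conditions and Cxcl12 at day 2 and day 10, where 23.9%, 22.1% and 22.8% of 16116 genes passed in healthy, day 2 and day 10 sums. Cxcl14 and Ccl11, which entered through the group where they are high, are not counted, and Ccl2, Ccl7, Cxcl1, Cxcl10 and Cxcl16 did not pass. The change differed between gates for 0 of 9 members, Ccl11 and Cxcl14 included, at day 2 and at day 10 in edgeR, against 0.0683% and 0.254% of genes. An unadjusted p under 0.05 was met by 2 and 1 of them, and by 1319 and 1801 of all 16116 genes. DESeq2 called Ccl11 at day 2 and none at day 10, among 353 and 593 genes called, and limma on mean CPM called Cxcl14 at day 10. Both members entered through the mesenchyme sums where they are high, so nothing is drawn from these calls.

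**Figure D5:**
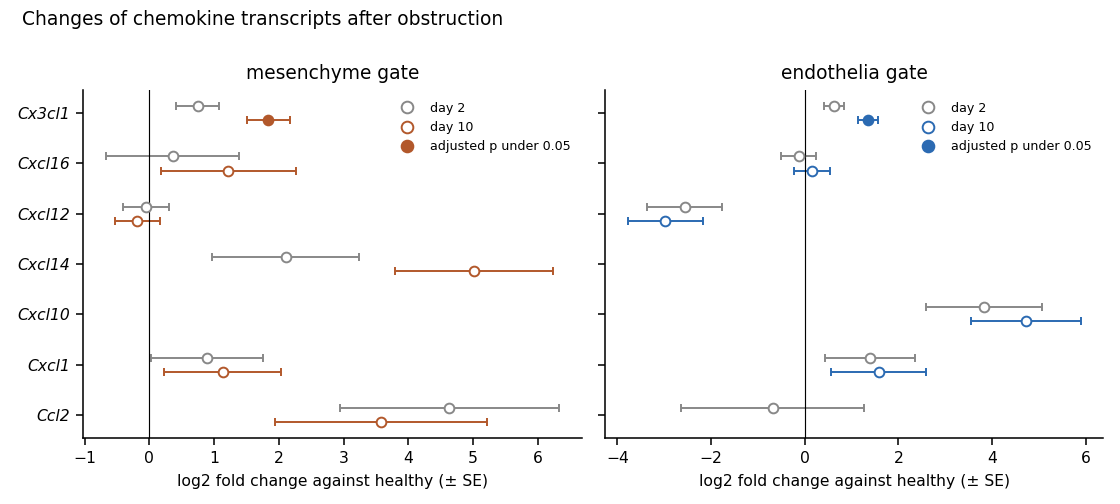
Log2 fold change against healthy with its SE for members with an SE of at most 2, at day 2 (grey) and day 10 (color), from edgeR; filled points have an adjusted p under 0.05. Cx3cl1 at day 10 is filled in both gates, at 1.84 and 1.35, and the Cxcl12 points of the endothelia gate lie below 0.

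Wells often held several members. Those with 3 or more numbered 23, 30 and 66 of 364, 366 and 376 in the mesenchyme gate and 38, 30 and 58 of 380, 368 and 381 in the endothelia gate. Those with none numbered 185, 157 and 120 and 77, 62 and 29 in the same order. These counts were not tested. In the mesenchyme gate 76 wells held both Cxcl14 and Cx3cl1, 77.6% of the Cxcl14 wells and 23.9% of the Cx3cl1 wells. Both Cxcl14 and Cxcl16 were present in 57 (58.2% and 35.4%). Genes placed in wells independently would share 28.2 and 14.3 wells. In the endothelia gate 96 wells held both Cxcl10 and Cx3cl1, 92.3% of the Cxcl10 wells and 11.1% of the Cx3cl1 wells. Independent placement would give 79.6, since 864 of 1129 wells of that gate held Cx3cl1. Both Cxcl10 and Cxcl12 were present in 11 (10.6% and 5.12%), where it would give 19.8. The overlaps are unthinned, pool all conditions and wells of unequal depth, and are a description.

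Over the 12 sums of the gate with its higher mean, the gene whose log2 CPM was most like that of Cx3cl1 was Serpina3f (Pearson r = 0.908), then Ets2 (0.903) and Rab20 (0.893). For Cxcl14 the most alike was the collagen gene Col12a1 (0.9405), and for Cxcl10 Riok1 (0.942), Spry4 (0.920) and Ywhaz (0.919). For Cxcl12 the highest was Acer3 (0.754). These were the highest of 7563 genes in the endothelia gate and 8059 in the mesenchyme gate, and the sums share plates and mice.

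Genes that act with chemokines were counted from lists. Of 26 other chemokines, 18 chemokine receptors and 5 atypical receptors, 10, 4 and 3 were tested in the mesenchyme gate and 7, 4 and 4 in the endothelia gate, and in edgeR none passed at day 2 or day 10. An unadjusted p under 0.05 was met by 0, 0 and 0 of them in the mesenchyme gate at day 2 and 2, 0 and 1 at day 10, and by 1, 1 and 2, then 0, 1 and 2, in the endothelia gate. Over all genes, 1473 and 1997 of 14582 met it in the mesenchyme gate, and 1195 and 1525 of 14026 in the endothelia gate. The receptor of CX3CL1, Cx3cr1, averaged 0.0833 to 1.41 CPM over the groups. Between gates, the scavenger receptor of CXCL12, Ackr3, stood at 214 ± 67.3 CPM in healthy mesenchyme sums and 39.6 ± 38.7 CPM in healthy endothelia sums (2.36 ± 0.59, edgeR adjusted p = 0.00584). The difference of Ackr3 was 2.16 ± 0.57 at day 2 (adjusted p = 0.00940) and 0.11 ± 0.56 at day 10 (adjusted p = 0.920), with 111 ± 53.1 and 86.7 ± 27.2 CPM in the gates at day 10, and the test of whether its change differed between gates did not pass (0.268). The scavenger of CC chemokines, Ackr2, stood at 0.0602 ± 0.0888 and 37.3 ± 21.3 CPM. Adam10, a sheddase of CX3CL1 and CXCL16, was lower in the mesenchyme gate by a log2 change of -2.38 ± 0.29 in healthy kidneys, -1.96 ± 0.29 at day 2 and -1.78 ± 0.28 at day 10 (adjusted p = 5.29e-06, 3.85e-05 and 0.000107).

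Some receptors of inflammatory signals rose in the mesenchyme gate. Of 19 tested there, 3 rose and 0 fell at day 2, when 0.459% of all genes passed, namely the tumour necrosis factor receptor Tnfrsf1a (1.18 ± 0.16, edgeR adjusted p = 0.00768), the shared interleukin 6 family subunit Il6st (1.39 ± 0.16, 0.00417) and the oncostatin M receptor Osmr (2.65 ± 0.33, 0.00518). At day 10, when 1.32% of all genes passed, 4 rose and 0 fell: these 3 (0.97 ± 0.16, 1.08 ± 0.16 and 2.61 ± 0.32) and the interleukin 4 receptor Il4ra (2.33 ± 0.40, adjusted p = 0.0194). Of 6 chemokine proteases, Mmp14 rose at day 10 (1.40 ± 0.21, adjusted p = 0.0124). Of 20 NF-kB and interferon factors, the transcription factor Stat3 alone passed, in the mesenchyme gate at day 2 (1.67 ± 0.14, edgeR adjusted p = 0.00303) and day 10 (1.27 ± 0.14, 0.00331) and in the endothelia gate at day 2 (1.17 ± 0.13, adjusted p = 0.0141). At day 10 in the endothelia gate 0 of these 20 passed in edgeR, with 11 at an unadjusted p under 0.05, and of the 19 receptors 0 passed there at either day, with 4 and 4. Of all 14026 genes tested there, 1195 at day 2 and 1525 at day 10 had an unadjusted p under 0.05. The median log2 change of the receptors was 0.35 at day 2 and 0.59 at day 10 in the mesenchyme gate, and that of the factors 0.55 and 0.78.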

How the data were processed

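Smart-seq2 libraries of 2292 sorted wells on 6 plates were analysed. The authors deposited unnormalized counts of reads for every gene in every well, layouts naming gate, condition and number, and spike-in RNA counts, which entered no test. STAR and the mm10 build are named in the submitters' processing notes; the read counter and its strand setting are not given in the sources used here. Entries sharing a symbol were added, which left 23998 symbols. The members and gene lists were chosen with earlier results of these data known. The named genes are the 10 members, genes of smallest p per list among those past the threshold, and the 3 most alike genes (mean log2 CPM of at least 4); some of the alike genes are not reported here.

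Wells with at least 1000 genes and 20000 reads were kept (2235). Clusters came from scanpy 1.11.5 (2000 variable genes, 30 components, 15 neighbours, Leiden resolution 1) and were named where at least 3 markers of a list were met, so names can differ from the study's own. Cluster 5 met smooth muscle markers and stayed unnamed because Ndufa4l2, a gene known from pericytes, was among its top genes. The variable genes included Ccl2, Ccl7, Ccl11, Cxcl1, Cxcl10, Cxcl12 and Cxcl14, so the shares of their reads by cluster are not independent of the clustering. Doublets were not called. No pair of wells held identical counts.

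Counts summed per gate, condition and number were filtered with filterByExpr, scaled with TMM and tested with edgeR 4.0.16 (R 4.3.3; quasi-likelihood F test, number as a block), with Benjamini-Hochberg adjustment over all genes and a threshold of 0.05. Printed CPM are unscaled. An SE is the change divided by the root of F, and member changes with an SE over 2 are not printed. The block rests on the plates, which the labels say each hold all 3 conditions: same-numbered sums deviated together only weakly (r from -0.0107 to 0.163 in the endothelia gate, 0.0140 to 0.144 in the mesenchyme gate). Number as mouse is a reading of the layout. On that reading both gates of a condition and number come from the same mouse. The block does not model that pairing in the tests between gates or of a difference in the change. Alternatives were DESeq2 1.42.0, limma 3.58.1 on log2 of mean CPM + 1, and other sums, filters and wells. Sums per plate, with plate as the block, enter numbers 1 and 4 more than once, so they are not independent mice. On simulated data with log2 changes of 1 and 2, the edgeR step recovered 16% and 48% of 100 changed genes each among 14241 genes (mesenchyme gate, day 10), and 12% and 35% among 13692 (endothelia gate, day 10). Since the protocol in the labels names no molecular identifiers, intervals and limits on reads cover counting error alone.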

Additional observations from a re-analysis of the deposited data

Results flagged for a closer look

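In 6 of the 45 groups of 4 sums whose highest value reached 1 CPM, 1 sum stood apart from the other 3 by Dixon's 95% criterion. That criterion is made for normal values, and CPM are skewed and often 0. A group with 3 sums at 0 meets it whatever the remaining value, so no rate under chance can be given. Cx3cl1 in the healthy endothelia gate stood at 216 CPM in number 4, against 536 CPM in the next lowest number, and its highest well held 14.7% of that sum's reads. Cxcl10 in the endothelia gate at day 2 stood at 106 CPM in number 2, where the next highest number was at 27.4 CPM and the top well held 58.2% of reads. Ccl2 in the endothelia gate at day 10 stood at 161 CPM in number 3, with 99.95% of that sum's reads in 1 well. Ccl11 in the mesenchyme gate at day 10 stood at 2.41 CPM in number 4, with 95.6% of reads in 1 well. Ccl7 stood at 1.32 CPM in number 1 of the endothelia gate at day 2 (88.7% in 1 well) and at 1.08 CPM in number 1 of the mesenchyme gate at day 10 (64.3% in 1 well), and at 0 in the other 3 numbers of each group.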

How the results depend on the processing

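Of the log2 changes recomputed under the 17 alternatives, 3 reversed, all without the fibroblast-like wells: Cx3cl1 at day 2 (-0.25) and Cxcl14 at day 10 against healthy (-0.94) and against day 2 (-2.54), in the mesenchyme gate. For Cxcl14 the loss was set in advance, since it is a leading gene of that cluster, whose wells held nearly all its day 10 reads. Leaving out these wells and those of cluster 0, or a plate, was chosen after seeing the data. Sums per plate enter numbers 1 and 4 more than once. Counts under the alternatives can include Ccl2, Cxcl10 and Cxcl14, from which no call by day is drawn. In the mesenchyme gate at day 10 the number of members passing, 1, was 2 in DESeq2, without a filter, in sums per plate, in limma on mean CPM and without plate 6, and 0 without the replicate block, without plates 1, 2 or 5 and without fibroblast-like wells. Leaving out a number gave 0 to 1. In the endothelia gate at day 10 it was 3 in DESeq2, without a filter and in sums per plate, 2 in limma, 0 without the block and 0 to 0 without a number. Counts of 0 became 1 or 2 in DESeq2, and 1 in limma for the difference between gates at day 10. For that difference the members called were Ccl11 (DESeq2, day 2) and Cxcl14 (limma), from which no call is drawn. Between gates, counting Ccl11 and Cxcl14, the count of 2 in healthy kidneys was 1 in limma and with the fibroblast-like and cluster 0 wells both left out, and that of 4 at day 2 was 2 to 3 without a number and 2 without plates 2 or 5. The 1 member passing in glomerular-like wells was 0 without the block and 0 to 1 without a number. The cause was not tested. Over all genes, counts at day 10 ranged from 28 to 1155 in the mesenchyme gate (193 as reported) and from 6 to 751 in the endothelia gate (91), and at day 2 from 16 to 571 (67) and 0 to 452 (21). Those between day 10 and day 2 ranged from 0 to 377 (7) and 0 to 289 (2), those for the difference between gates from 0 to 353 (11) and 1 to 593 (41), the lowest mostly without a number and the highest in DESeq2. Between gates at day 10, 3668 became 2423 without number 4. The few wells with Ccl7 (14), Ccl11 (12) and Ccl8 (4) limit what their levels can show.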
